A study of Mus musculus with 2 samples.

Results

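Of 7841 domain boundaries listed for mouse olfactory neuronal precursors, 387 (4.94%) have long noncoding RNA (lncRNA) gene starts nearby and no protein-coding gene start. They were chosen by position alone: the 5 kb interval extended by 10 kb on each side had to hold the 5′ end of at least 1 lincRNA or antisense gene record and of no protein-coding gene record (GENCODE M21, GRCm38). The rule used no boundary score. A lincRNA is transcribed from between protein-coding genes, and an antisense lncRNA overlaps a protein-coding gene on the opposite strand. These 387 lncRNA-only boundaries are set beside 2687 boundaries with a protein-coding start within 10 kb and 4767 with a start of neither kind. They make up 7.51% (6.82 to 8.26%) of the 5154 boundaries without a protein-coding start. Intervals in parentheses are 95% Wilson intervals, or Newcombe intervals for a difference between shares. They reflect the number of boundaries counted and nothing else, and they take each boundary as independent, which neighbours on a chromosome need not be.

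The cells were primary immediate neuronal precursors sorted from the olfactory epithelium of FVB/NTac mouse pups of mixed sex, with no treatment and no genetic modification in the sample labels, although the sort protocol names Ngn1-GFP mice. Chromosome contacts were measured by in situ Hi-C, which cuts fixed chromatin with a restriction enzyme, here DpnII, and ligates ends that lie close together in the nucleus. There were 2 biological replicates of 1 group, from 2200000 and 2100000 cells. The contacts of both replicates were pooled before any boundary was called, so the spread between replicates and the depth per replicate are unknown for every value below. How many animals were pooled is not given in the sources used here, and the boundary list holds no expression values, so the sorted cells could not be checked against marker genes and no lncRNA named below is known from these data to be transcribed. The authors gave each interval a score of boundary strength and a class, and in the deposited values the strong class starts at 0.5 and the weak class at 0.2. No p-value is given, because intervals called on 1 combined matrix are not replicates.

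Domain boundaries are positions that contacts cross less often than the sequence on either side. In mammals most are thought to form where cohesin, which extrudes chromatin loops, is halted by the DNA-binding protein CTCF, and many also lie at the promoters of active genes. In olfactory precursors this folding is laid down before the cell becomes a sensory neuron and settles on the olfactory receptor it will express. Some lncRNA genes act through their transcript and others through their promoter or the act of transcription, and for most of those below no function is known.

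CTCF binds a conserved core sequence with a direction, and the genome was searched on both strands for exact matches to its 12-base core consensus. At 12 of the 387 lncRNA-only boundaries the centre of a match lay within 300 bases of a lncRNA start. Such starts lay inside the interval or outside it, as for Snhg7os, 9.63 kb away. The match, in capitals, is shown for 8 of these starts with 20 bases on each side, 5′ to 3′ on the strand that carries the match (GRCm38.p6).
Gm47710: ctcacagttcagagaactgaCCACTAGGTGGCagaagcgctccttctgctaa
Snhg7os: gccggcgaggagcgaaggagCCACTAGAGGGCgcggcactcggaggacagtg
Gm33299: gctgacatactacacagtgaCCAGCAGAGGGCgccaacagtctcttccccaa
4632415L05Rik: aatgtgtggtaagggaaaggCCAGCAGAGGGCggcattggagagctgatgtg
Gm12069: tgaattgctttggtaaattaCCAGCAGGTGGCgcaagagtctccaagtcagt
Tbx3os2: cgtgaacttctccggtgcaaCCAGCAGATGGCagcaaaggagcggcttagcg
E330013P04Rik: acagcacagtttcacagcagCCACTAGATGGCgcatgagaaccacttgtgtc
AC134908.3: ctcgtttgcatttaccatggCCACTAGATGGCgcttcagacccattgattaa

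The window of Gm47710 is chr10:15300227-15300278 on the plus strand, and its match centre lies 22 bases from the start, inside a boundary interval with a score of 0.723. The window of Snhg7os is chr2:26640306-26640357 on the minus strand, 40 bases from the start, at a boundary with a score of 1.23. Those of Gm33299 (chr14:121455675-121455726), 4632415L05Rik (chr3:19894782-19894833) and Gm12069 (chr11:25301328-25301379) are on the minus strand as well, at boundaries scored 0.525, 0.949 and 0.480. Also on the minus strand are those of Tbx3os2 (chr5:119691304-119691355), E330013P04Rik (chr19:60144515-60144566) and AC134908.3 (chr17:25698607-25698658), whose boundaries scored 0.421, 0.630 and 1.18. AC134908.5 starts a few bases from AC134908.3 on the opposite strand and shares its match. Matches within 300 bases were not counted for other starts, so this number has no background. The counts further on, inside the promoter and within 1 kb of the start, are set beside those of other starts. A match is a stretch of letters, not a measured binding site.

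The promoters of Snhg7os and 4632415L05Rik are shown because both hold the consensus and are also rich in CpG, a feature more typical of protein-coding promoters. Each runs from 250 bases before the start to 50 after it on the strand of the gene, which is the plus strand for both (chr2:26640122-26640421 and chr3:19894636-19894935), with the reverse complement of the match in capitals.
Snhg7os promoter: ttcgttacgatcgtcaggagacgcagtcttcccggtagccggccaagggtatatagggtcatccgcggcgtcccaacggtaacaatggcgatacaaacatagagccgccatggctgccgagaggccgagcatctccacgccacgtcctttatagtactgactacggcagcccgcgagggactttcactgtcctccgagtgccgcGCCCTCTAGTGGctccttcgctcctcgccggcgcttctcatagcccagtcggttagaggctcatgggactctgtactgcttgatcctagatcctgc
4632415L05Rik promoter: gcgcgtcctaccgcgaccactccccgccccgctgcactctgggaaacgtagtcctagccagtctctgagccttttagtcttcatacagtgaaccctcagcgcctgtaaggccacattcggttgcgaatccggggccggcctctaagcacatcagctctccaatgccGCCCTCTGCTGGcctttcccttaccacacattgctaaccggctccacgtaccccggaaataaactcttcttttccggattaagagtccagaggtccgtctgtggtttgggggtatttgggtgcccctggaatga

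Snhg7os lies opposite Snhg7, a host gene of small nucleolar RNAs. Its promoter is 59.3% G or C with a ratio of observed to expected CpG of 1.03, and in 4632415L05Rik these are 57.3% and 0.753. Over all starts at lncRNA-only boundaries, 7 of 419 promoters of this length (1.67%, 0.812 to 3.41%) held a match, against 0.421% of 7844 other lincRNA and antisense promoters and 0.540% of all 30018 promoters of the 3 gene types. The 7 are few, and the interval is wide.

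Other matches lie inside the interval of a boundary with a high score, away from the lncRNA start. Such matches are shown for 3 of the 40 highest-scoring lncRNA-only boundaries, again on the strand of the match.
1700100L14Rik: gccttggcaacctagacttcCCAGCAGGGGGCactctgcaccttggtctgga
Gm47101: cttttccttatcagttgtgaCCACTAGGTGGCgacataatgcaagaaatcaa
Gm28502: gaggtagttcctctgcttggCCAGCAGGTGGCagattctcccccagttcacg

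These windows are chr13:70582691-70582742 on the minus strand, chr10:102449630-102449681 on the plus strand and chr15:75088221-75088272 on the minus strand. The boundary scores are 1.80, 1.74 and 1.65, in that order. The letters of the match differ between all 3, since the consensus allows several bases at some positions.

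Boundaries with only lncRNA starts were more often strong than boundaries with neither kind of start. The interval of their difference from boundaries at protein-coding starts spanned 0. Of the 387, 236 (61.0%, 56.0 to 65.7%) belonged to the strong class, against 52.8% of all 7841 boundaries. The strong share was 63.0% (61.2 to 64.8%) at protein-coding starts and 46.3% (44.9 to 47.7%) with neither kind of start. The difference was 14.7 percentage points (9.54 to 19.6) from boundaries with neither and -2.06 points (-7.33 to 3.01) from those at protein-coding starts. The second interval spans 0, which does not show that both kinds are equally strong.

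The scores gave the same order. The median score was 0.636 with quartiles of 0.360 and 0.931 at lncRNA-only boundaries, 0.643 with quartiles of 0.380 and 1.01 at protein-coding starts, and 0.462 with quartiles of 0.284 and 0.825 with neither. The highest score at a lncRNA-only boundary was 3.33, against 3.78 in the whole list, and the lowest lay at the limit of the weak class. When all boundaries were ranked by score and cut into quartiles, lncRNA-only boundaries were 4.66%, 7.08%, 9.66% and 9.58% of those without a protein-coding start, from the lowest quartile to the highest. The share grew up to the third quartile and not beyond it.

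**Figure D1:**
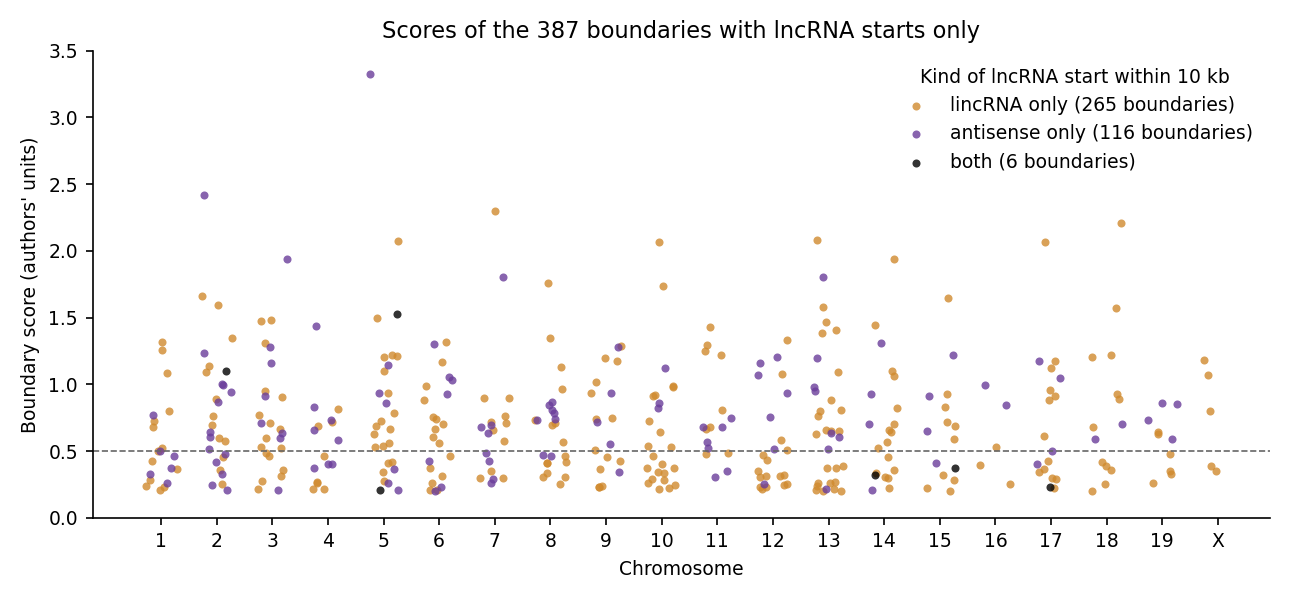
Each point is 1 of the 387 lncRNA-only boundaries, placed by chromosome (horizontal axis, with random jitter) and boundary score (vertical axis, the authors' units), coloured by the kind of lncRNA start within 10 kb. The dashed line is the score of 0.5 at which the strong class begins, and the point above 3 is the boundary at Speer4cos.

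The pattern recurred along the genome, as the plot of scores by chromosome shows. On 19 of 20 chromosomes the strong share of lncRNA-only boundaries was above that of boundaries with neither start. The exception was chromosome 1, with 45.0% of 20 boundaries against 46.5% of 385. On the others the gap varied widely, from 60.0% against 59.8% on chromosome 19 to 60.0% against 28.8% on chromosome X. Against protein-coding starts the strong share of lncRNA-only boundaries was above on 10 of 20 chromosomes. Numbers per chromosome were small, between 5 (chromosomes 16 and X) and 33 (chromosome 13), and over the 18 chromosomes with at least 10 members the strong share was lowest on chromosome 12, with 10 of 23 boundaries (43.5%), and highest on chromosome 11, with 12 of 16. Chromosome 13 also had the largest part of its boundaries in this class, 9.73%, and chromosome X the smallest, 1.16%.

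Protein-coding starts further away and base composition both moved with the strong class. LncRNA-only boundaries had their nearest protein-coding start at a median of 63.3 kb, against 79.6 kb for boundaries with neither start. Their median GC content was 44.1%, against 45.2% at protein-coding starts and 41.1% with neither. The strong share was therefore compared within ranges of each.

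With the nearest protein-coding start 10 to 25 kb away, 69.9% of 103 lncRNA-only boundaries were strong, against 63.8% of 938 with neither start. At 25 to 50 kb it was 68.8% of lncRNA-only boundaries against 59.9% of those with neither start. At 50 to 100 kb it was 72.6% of lncRNA-only boundaries against 58.8%, and at 100 to 200 kb 57.8% against 46.5%. Beyond 200 kb, 30.6% of 72 lncRNA-only boundaries were strong, against 19.4% of 1438 with neither start. In all 5 ranges the lncRNA-only boundaries had the higher share, and in both classes the share was lowest in the range furthest from protein-coding genes. With the ranges joined, the difference was 7.57 points (-0.113 to 14.4) up to 50 kb, an interval that spans 0. Beyond 50 kb it was 17.8 points (10.9 to 24.4).

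By GC content the difference was present in 3 of 4 quartiles. In the quartile lowest in GC, 40.3% of 67 lncRNA-only boundaries were strong, against 28.6% of 1605 with neither start. In the second quartile 57.9% of lncRNA-only boundaries were strong, against 46.1% with neither start, and in the third 73.1% against 60.9%. In the quartile highest in GC, over 46.3%, it was 60.9% of 110 lncRNA-only boundaries against 63.9% of 760 with neither, a difference of -3.04 points (-13.0 to 6.24). When boundaries with neither start were weighted to the spread of the lncRNA-only ones over both measures, their strong share came to 54.2%, which leaves 6.80 of the 14.7 points. This weighting and the ranges of distance were chosen after the data had been seen.

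**Figure D2:**
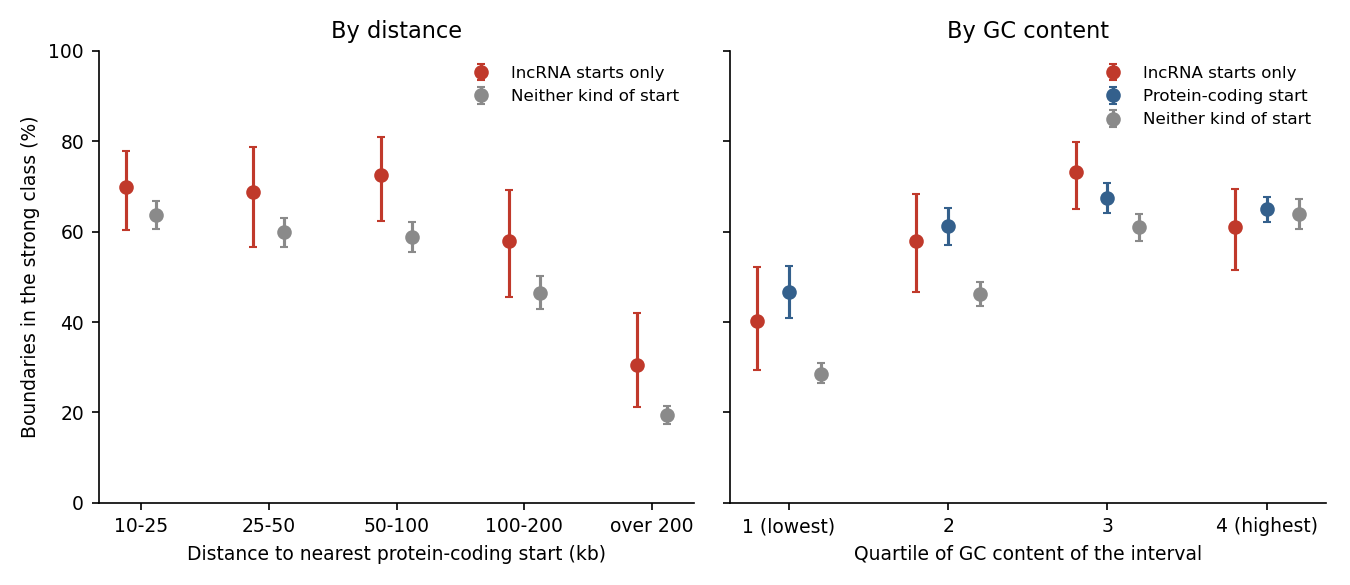
Share of boundaries in the strong class (vertical axis, percent) by distance to the nearest protein-coding start (left, kb) and by quartile of GC content of the 5 kb interval (right). Points are shares and bars 95% Wilson intervals; lncRNA-only boundaries lie above boundaries with neither start in all 5 distance ranges and in GC quartiles 1 to 3, and below them in quartile 4 (60.9% and 63.9%).

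Within the limit of 10 kb the strong share varied little with the distance of the lncRNA start. The strong share was 57.4% of the 68 boundaries with a start inside the interval, 62.2% of 164 with the nearest start up to 5 kb away and 61.3% of 155 with it 5 to 10 kb away. Just outside the limit, 146 boundaries with no protein-coding start had their nearest lncRNA start 10 to 15 kb away, and 57.5% of them were strong. The lowest share was found far from both kinds of start: of 2479 boundaries with neither within 50 kb, 34.7% were strong.

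With antisense starts only, 83 of 116 boundaries were strong (71.6%, 62.8 to 79.0%), and with lincRNA starts only 151 of 265 (57.0%, 50.96 to 62.8%), a difference of 14.6 points (4.02 to 24.1). The median score was 0.703 at antisense-only and 0.591 at lincRNA-only boundaries. Of the 6 boundaries with starts of both types 2 were strong. That share with lincRNA starts only was 10.7 points (4.50 to 16.7) above that of boundaries with neither start.

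The gap between the types was then taken near and far from protein-coding starts, a division made after the data had been seen. Where a protein-coding start lay within 50 kb, 71.2% of 66 antisense-only and 70.8% of 96 lincRNA-only boundaries were strong, a difference of 0.379 points (-14.0 to 14.0). Where none did, 72.0% of 50 antisense-only and 49.1% of 169 lincRNA-only boundaries were strong, a difference of 22.9 points (7.31 to 35.8). In GC quartiles 1 and 2 the difference was 23.3 points (4.01 to 39.4) and in quartiles 3 and 4 it was 7.76 points (-4.80 to 19.1). Whether these differences differ from each other was not tested.

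By definition the types also lie in different places. Of the 116 antisense-only intervals, 57 overlapped an exon of a protein-coding gene, 32 lay in an intron and 27 lay outside. Of the 265 lincRNA-only intervals, 240 lay outside. Together, 78 lncRNA-only intervals (20.2%) overlapped a protein-coding exon, 37 (9.56%) lay in an intron and 272 (70.3%) outside. At boundaries with neither start these shares were 20.3%, 17.2% and 62.6%. The gap between the types went both ways by place. Outside protein-coding genes 22 of 27 antisense-only and 132 of 240 lincRNA-only intervals were strong, a difference of 26.5 points (7.28 to 38.6). In protein-coding genes 61 of 89 antisense-only and 19 of 25 lincRNA-only intervals were, a difference of -7.46 points (-23.6 to 13.8). In protein-coding genes 69.6% of 115 lncRNA-only intervals were strong, against 53.3% of 1785 with neither start. Outside them 57.4% of 272 lncRNA-only intervals were strong, against 42.1% of 2982 with neither start.

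The CTCF core consensus was found near lncRNA-only boundaries more often than near boundaries with a protein-coding start or with neither kind of start. A match lay within 10 kb of 141 of the 387 (36.4%, 31.8 to 41.3%), against 26.0% of all boundaries. At protein-coding starts the share was 26.1% (24.4 to 27.7%) and with neither start 25.1% (23.9 to 26.3%). The difference was 10.4 points (5.44 to 15.6) from protein-coding starts and 11.4 points (6.56 to 16.4) from neither. Inside the 5 kb interval alone, 40 lncRNA-only boundaries (10.3%, 7.68 to 13.8%) held a match, against 6.91% of all, 6.03% at protein-coding starts and 7.13% with neither. The difference from neither was 3.20 points (0.442 to 6.71) and changed sign with GC content: it was 3.23 and 8.23 points in the first and second GC quartiles, -3.00 points (-6.91 to 2.98) in the third and -1.24 points (-7.30 to 6.91) in the fourth.

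The higher share was not limited to boundaries with a lncRNA start within 10 kb. Of the 146 boundaries without a protein-coding start whose nearest lncRNA start lay 10 to 15 kb away, 62 (42.5%, 34.7 to 50.6%) had a match within 10 kb and 19 held one inside the interval. The lncRNA-only share minus theirs was -6.03 points (-15.4 to 3.12) within 10 kb and -2.68 points inside the interval, where the range of the difference also spans 0.

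Over all 511892 bins of 5 kb in the genome, of which 11.0% had a match within 10 kb, the order was another one. A match lay within 10 kb of 14.1% of the 26821 bins with lncRNA starts only, 17.3% of those with a protein-coding start and 9.43% of those with neither. Boundaries of every class exceeded their bins, and for protein-coding starts by the least.

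GC content moved with the matches too. The difference from boundaries with neither start was 4.46, 9.53, 1.13 and 4.31 points from the lowest GC quartile to the highest, and the interval excludes 0 in the second quartile alone, where it is 0.0875 to 20.8. Weighted for GC content and distance, 32.5% of boundaries with neither start held a match, which leaves a difference of 3.94 points. Against protein-coding starts the difference was 5.38, 10.6, 14.2 and 17.2 points, with intervals above 0 in the last 3. Within GC quartiles the excess over protein-coding boundaries was thus kept, and that over boundaries with neither start was smaller than before.

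**Figure D3:**
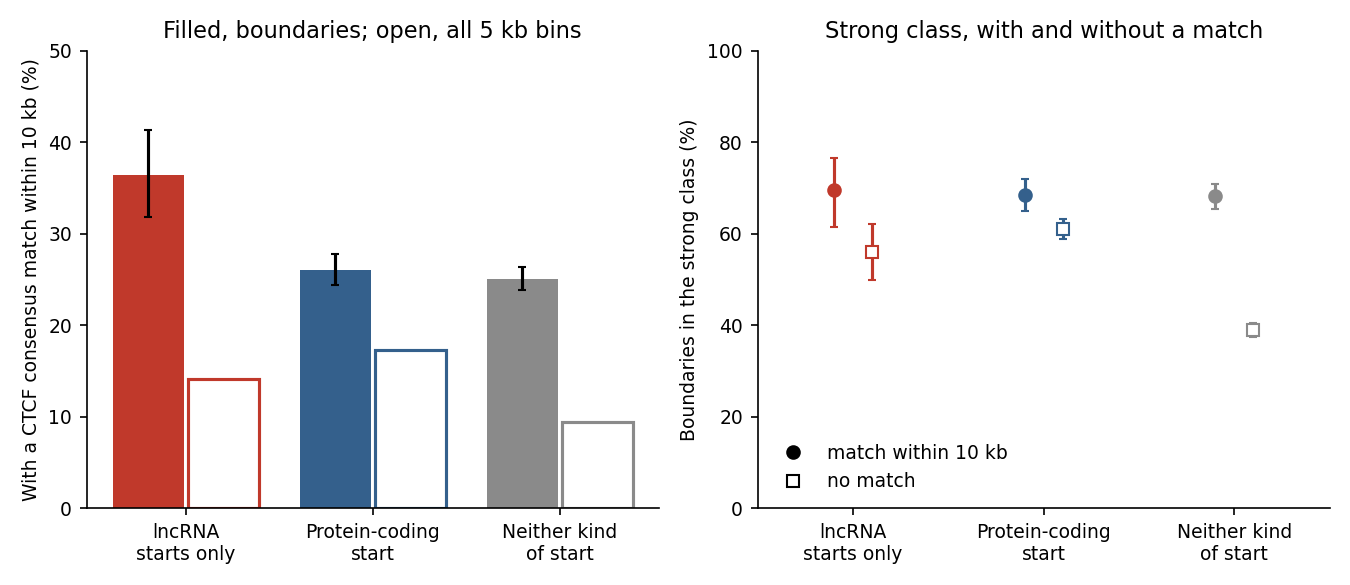
Left, share with a CTCF core consensus match within 10 kb (vertical axis, percent) for boundaries (filled bars, 95% Wilson intervals) and for all 5 kb bins of the genome (open bars) by class of gene start. Right, share of boundaries in the strong class with a match within 10 kb (circles) and without one (open squares); with a match the 3 classes lie at 68.2 to 69.5%, and without one boundaries with neither start are lowest at 39.0%.

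Where a match was present the classes had similar strong shares, and where none was found their shares lay further apart. With a match, 69.5% of 141 lncRNA-only boundaries, 68.6% of 700 at protein-coding starts and 68.2% of 1195 with neither start were strong. Without a match, 56.1% of 246 lncRNA-only boundaries, 61.1% of 1987 at protein-coding starts and 39.0% of 3572 with neither start were strong. The difference between lncRNA-only boundaries and those with neither start was 1.30 points (-7.13 to 8.80) with a match and 17.1 points (10.7 to 23.4) without. Among boundaries without a match, median GC content was 43.3% at lncRNA-only boundaries and 40.3% with neither start. Their nearest protein-coding start lay at a median of 69.7 and 95.7 kb. The 17.1 points are not weighted for these measures, and their part in it was not tested. An exact match finds only part of the sites that CTCF can use, so boundaries without one are not boundaries without CTCF.

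The direction of the matches was similar in all classes. Of 176 matches at lncRNA-only boundaries, 119 (67.6%, 60.4 to 74.1%) lay in the divergent arrangement, on the minus strand left of the boundary centre or on the plus strand right of it. The share was 68.1% of 839 at protein-coding starts and 68.9% of 1500 with neither start.

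The starts themselves were 419, of 296 lincRNA and 123 antisense genes. One start was found at 358 boundaries, 2 at 26 and 3 at 3. Most of the genes are poorly known: 272 have placeholder names beginning with Gm, 92 have RIKEN clone names and 55 have neither. Their genes had a median length of 7.28 kb, and 74 of them spanned the whole interval. Of the 347 starts outside the interval, 166 (47.8%, 42.6 to 53.1%) were transcribed towards it and 181 away from it.

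Few of these promoters resembled those of protein-coding genes. A promoter, 300 bases long, counted as CpG-rich at a GC content of at least 50% and a ratio of observed to expected CpG of at least 0.6. Of the 419 starts, 37 met this (8.83%, 6.47 to 11.9%), against 3.73% of 5570 lncRNA starts over 10 kb from any boundary and any protein-coding start. At boundaries with a protein-coding start 39.3% of 438 lncRNA starts met it, and of 3570 protein-coding starts near a boundary 57.5%. The median CpG ratios of these sets were 0.260, 0.214, 0.464 and 0.714, in the same order. Among all 7844 other lincRNA and antisense starts, near protein-coding starts or not, 12.2% were CpG-rich, with a median ratio of 0.252. The 419 starts were filtered by the interval, so some can lie within 10 kb of a protein-coding start, unlike the 5570. Of 34 lncRNA-only boundaries with a CpG-rich start 17 were strong (34.1 to 65.9%), against 62.0% of the other 353 (56.9 to 66.9%).

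The consensus lay close to a start more often here than at lncRNA starts elsewhere. Within 1 kb of the start a match was found for 25 of 419 (5.97%, 4.07 to 8.66%), against 1.36% (1.09 to 1.70%) of the 5570 starts away from boundaries and protein-coding starts. It was 2.74% of the 438 lncRNA starts at protein-coding boundaries and 2.38% of the protein-coding starts near a boundary. Windows around lncRNA-only boundaries also held more matches in general, 1.82 per 100 kb against 1.25 at protein-coding starts and 1.26 with neither. The part of this density in the values near starts was not tested.

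**Figure D4:**
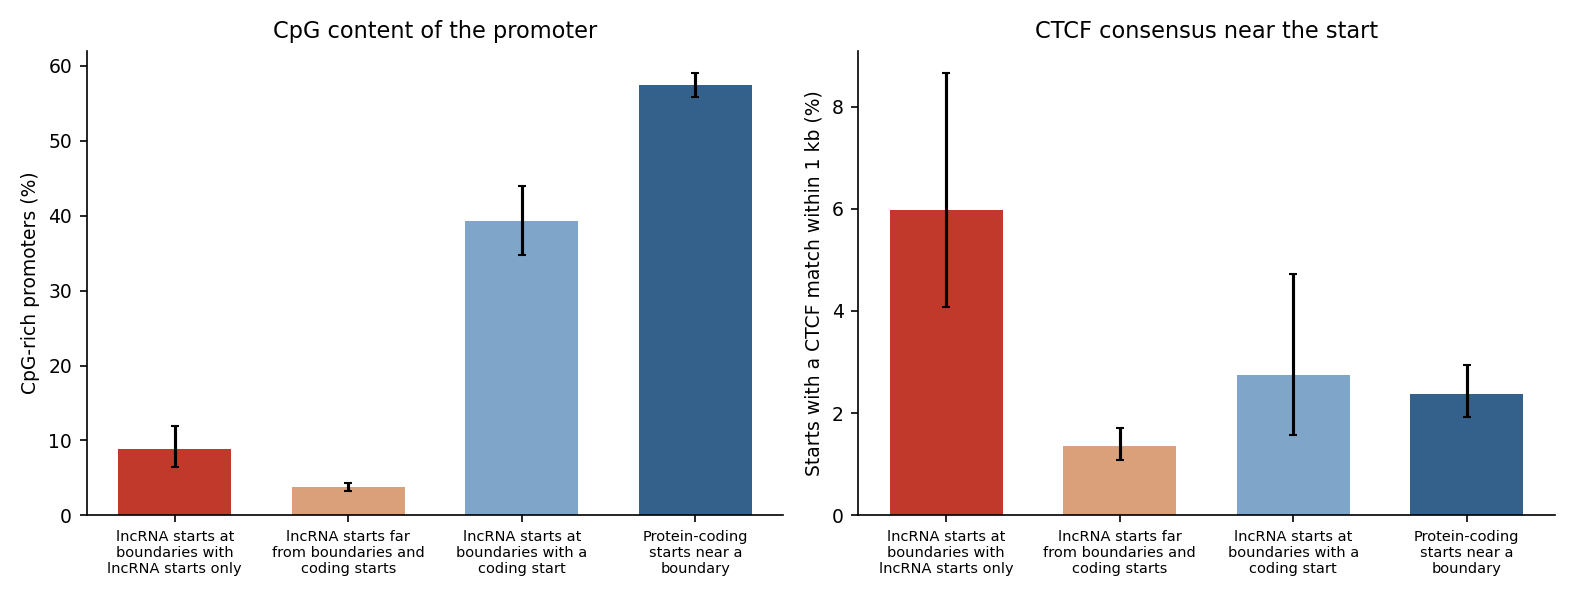
Share of CpG-rich promoters (left, percent) and of starts with a CTCF core consensus match within 1 kb (right, percent) for 4 sets of gene starts, with 95% Wilson intervals. The 419 lncRNA starts at lncRNA-only boundaries are low in CpG-rich promoters (8.83%) and highest of the 4 sets in matches near the start (5.97%).

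LncRNA and protein-coding starts were then counted by distance from the boundary. Around all boundaries, protein-coding starts numbered 14.1 per 100 boundaries in the interval, against 5.03 per 5 kb bin at 50 to 100 kb, a ratio of 2.80. Around the 5154 boundaries without a protein-coding start, lone lncRNA starts, those with no protein-coding start within 10 kb of their own, numbered 1.40 per 100 in the interval. At 50 to 100 kb they averaged 1.23, with single bins between 1.01 and 1.53. Within 10 kb on either side the mean was 1.55, just above that range. The choice of boundaries without protein-coding starts itself favours lone starts close by, so the excess is a description. LncRNA starts of any kind showed no such excess around these boundaries. They numbered 1.40 per 100 in the interval and 1.63 within 10 kb, against 1.61 at 50 to 100 kb. Around all 7841 boundaries lone lncRNA starts were fewer near the boundary: 0.957 per 100 in the interval and 1.17 within 10 kb, against 1.29 at 50 to 100 kb, a ratio of 0.742 for the interval. LncRNA starts of any kind numbered 2.54 per 100 in the interval, against 1.83 at 50 to 100 kb, a ratio of 1.39. The direction for lncRNA starts thus depended on which starts and which boundaries were counted.

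Counted from the side of the genes, 7.31% of 4406 lone lincRNA genes and 8.33% of 1621 lone antisense genes started within 10 kb of a boundary. Such windows cover 7.66% of the assembled sequence, and 16.4% of protein-coding genes start in them. With neighbouring protein-coding starts disregarded, the shares were 9.35% of 5305 lincRNA and 12.2% of 2958 antisense genes. Of all bins without a protein-coding start 6.31% had a lncRNA start within 10 kb. Weighted to the GC content of the boundaries this came to 6.82%, against 7.51% of boundaries.

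**Figure D5:**
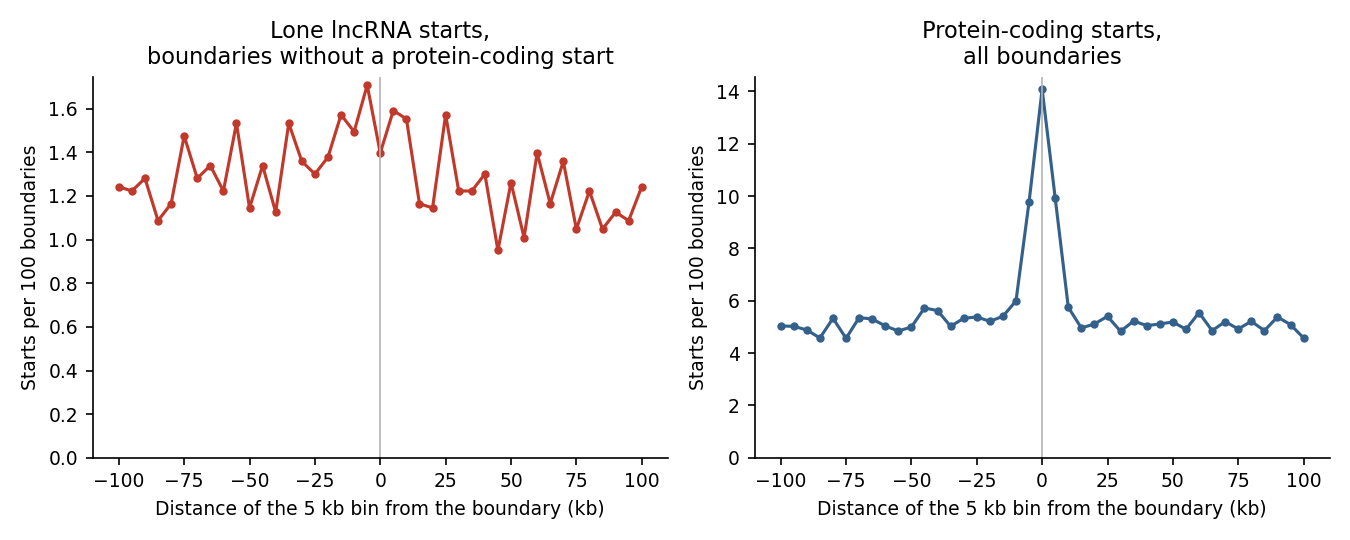
Gene starts per 100 boundaries (vertical axes, which differ in scale) by distance of the 5 kb bin from the boundary (horizontal axis, kb). Left, lone lncRNA starts around the 5154 boundaries without a protein-coding start, where the interval holds 1.40 and the flanks average 1.23. For lncRNA starts of any kind around them, not plotted, these are 1.40 and 1.61. Right, protein-coding starts around all boundaries, with a peak of 14.1 over flanks of 5.03.

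The 12 lncRNA-only boundaries with the highest scores were led by a repeated locus. The boundary at Speer4cos (chr5:15685001-15690000) scored 3.33. It lies in the Speer genes, a family of near-identical rodent copies, and only 17.1% of the 31-mers in its extended interval occur once in the genome, the lowest of all 7841 boundaries. Contacts are hard to place in such sequence, so its score is uncertain. Of the 387 boundaries, 343 had at least 75% unique sequence and 8 had less than 50%. At least 75% was reached by 2476 of 2687 boundaries at protein-coding starts and 3525 of 4767 with neither start. The median was 92.7% at lncRNA-only boundaries, 92.3% at protein-coding starts, 88.6% with neither and 90.7% over all boundaries. Under this limit the strong share lay 11.5 points above that with neither start, and the share with a CTCF match 7.23 points above.

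The second was an imprinted locus. The boundary at Nespas (chr2:174305001-174310000) scored 2.42 and lies in an intron of Gnas, which encodes the stimulatory G protein alpha subunit. Nespas is transcribed from the paternal chromosome, antisense to Nesp, and its start lies 9.56 kb from the interval. Gnas has alternative promoters, and by its gene record it starts 20.7 kb away. Over all lncRNA-only boundaries, 71 had the 5′ end of some transcript of a protein-coding gene within 10 kb, in 34 cases of a transcript that is itself annotated as protein-coding.

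The lncRNA genes of 8 of the remaining 10 carry only placeholder or clone names, and they are given with the protein-coding gene whose start is nearest. Gm45086 (chr7:48720001-48725000) scored 2.30, at 69.4% unique sequence, 64.0 kb from Zdhhc13, a palmitoyltransferase gene. Gm48107 (chr13:40760001-40765000) scored 2.08 and lies 21.6 kb from Tfap2a, a transcription factor gene of neural crest and ectoderm. The interval of Gm26519 and Gm32051 (chr5:105395001-105400000) also scored 2.08 and lies 15.8 kb from Lrrc8b, a subunit gene of volume-regulated anion channels. Of the 387 lncRNA-only boundaries, 20 reached a score of 1.5 and 81 reached 1. Other boundaries were not counted at these scores. The upper quartile of the score was 0.931 at lncRNA-only boundaries and 0.899 over all boundaries. It was 1.01 at protein-coding starts and 0.825 with neither start.

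C430042M11Rik (chr17:83860001-83865000) scored 2.07 and lies 12.04 kb from Haao, an enzyme gene of tryptophan breakdown. Gm47900 (chr10:66835001-66840000) scored 2.06 with its start inside the interval and no protein-coding start within 200 kb, the nearest being Jmjd1c, of a histone demethylase family. Gm10032 (chr14:66780001-66785000) scored 1.94, also with its start inside, 83.7 kb from Dpysl2, which acts in axon growth. They show that high scores occur both next to protein-coding genes and far from them.

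Gm16158 (chr7:68360001-68365000) scored 1.81 and overlaps an exon of Fam169b. 1700100L14Rik (chr13:70580001-70585000) scored 1.80, lies in an intron of Ice1, a gene of the little elongation complex of small nuclear RNA transcription, and holds the consensus match shown above. The other two of the 12 are named for a neighbour. Epb41l4aos (chr18:33790001-33795000) scored 2.21 with its start and a match inside the interval. Spag17os (chr3:100110001-100115000) scored 1.94, in an intron of Spag17, a gene of the ciliary axoneme. The boundary nearest the median, at Gm28989 (chr13:106785001-106790000), scored 0.636, had its start inside and no match within 10 kb.

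Lists of well-known lncRNA genes were also looked up. Of all 8263 lincRNA and antisense genes, 419 started at lncRNA-only boundaries. Within 10 kb of any boundary started 9.35% of all lincRNA and 12.2% of all antisense genes. The lists are short, and whether they differ from these shares was not tested. In a list of X inactivation and imprinting, 2 of 10 lincRNA or antisense genes started within 10 kb of any boundary, Nespas here and Ftx at a boundary with a protein-coding start. Of 8 nuclear and chromatin-linked genes, Hotairm1 and Tug1 lay near a boundary, and of 15 neural and developmental ones Pax6os1, Nkx2-2os and Emx2os. All 5 were at boundaries with a protein-coding start too. Of 15 genes with the symbols of small RNA hosts, which take in their opposite-strand genes, 3 lay near a boundary, and 1 of these, Snhg7os, at a lncRNA-only one.

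Genes named for the gene on the opposite strand were the largest list: 38 of 276 (13.8%) started near a boundary, 19 of them at lncRNA-only boundaries. Near a boundary started 9.35% of all lincRNA and 12.2% of all antisense genes. Beside those already given, Bach2os scored 1.44, with an interval that overlaps an exon of Bach2, a transcriptional repressor gene of lymphocytes. Rab10os scored 0.936 and Ifngas1, which in T cells acts on the interferon gamma gene Ifng, 0.917 at 114 kb from it. Fhad1os1 scored 0.736, Mecomos 0.599 in an intron of the blood stem cell gene Mecom, and Tvp23bos 0.568. Arhgap27os3 scored 0.523, the pair Rapgef4os2 and Rapgef4os3 0.519 with an interval that overlaps an exon of Rapgef4, and Prox2os 0.514.

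The remaining listed genes lay at weak boundaries. Tbx3os2 scored 0.421, 24.3 kb from Tbx3, a T-box developmental regulator gene, with the consensus match shown above. Rspo4os scored 0.420, with an interval that overlaps an exon of the Wnt agonist gene Rspo4. Ube4bos1 scored 0.406, with an interval that overlaps an exon of the ubiquitin ligase gene Ube4b. Runx2os1 scored 0.402 in an intron of the osteoblast regulator gene Runx2. These lists were drawn up with earlier results of the same boundaries known.

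The median distance from a lncRNA-only boundary to the neighbouring boundary was 270 kb with quartiles of 190 and 380 kb, against 235 kb at protein-coding starts and 285 kb with neither start. Another lncRNA-only boundary was a neighbour of 46 of them (11.9%), against 9.54% of all boundaries. A boundary with a protein-coding start was a neighbour of 210 (54.3%), against 53.6% of all boundaries and 45.9% of those with neither start. The median share of repeat-masked sequence in the interval was 24.1%, against 24.7% at protein-coding starts and 27.8% with neither.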

How the data were processed

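Per the series' design text, contacts of both replicates were pooled into a matrix from which boundaries were called, and per the submitters' processing notes the build is GRCm38. The program that called them and its settings are not stated in the labels. Each deposited interval of 5 kb carries a class and a score, which the authors computed, and the score was used only to rank and describe intervals of this list. Contact matrices were not analysed here.

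Genes came from GENCODE M21 and sequence from GRCm38.p6, with Python 3.11.15, pandas 2.3.3, NumPy 2.4.6 and SciPy 1.17.1. The start was the 5′ end of the gene record, and near meant within 10 kb. Genome-wide bins of 5 kb needed at least 50% assembled sequence. CTCF matches were exact, on either strand. Unique sequence was the percentage of 31-mers, sampled at 1 in 32, with a single copy in chromosomes 1 to 19 and X. The counting steps were tested on simulated data. Depth and replicate spread are unknown, so no tests between samples were made.

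Named were the 12 boundaries with the highest score, all with a gene of 5 lists, and the one nearest the median score; none had 4 or more starts. The genes of the printed consensus sequences were chosen after their values were seen. The boundaries and lists were chosen with earlier results of these data known. Alternatives changed the distance, gene sets, start definition, boundary set, motif rule and place rule.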

Additional observations from a re-analysis of the deposited data

How the results depend on the processing

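The list comes from 1 combined matrix, so leaving out a replicate could not be run, and boundary calls that rest on 1 replicate cannot be told from the others. Merging boundaries within 50 kb changed nothing, since the closest neighbours are 60 kb apart. The strong share of lncRNA-only boundaries minus that of boundaries with neither start was above 0 under 20 of 21 alternatives and -3.04 points in GC quartile 4; the cause was not tested. It was 5.56 points when near meant the interval alone, 6.80 points when weighted for GC content and distance, and 6.15 and 8.86 points at 10 to 25 and 25 to 50 kb from a protein-coding start. The alternatives counted here and below include the merging and overlapping subsets of the same boundaries, so they are not separate checks. The strong share was 40.3% in GC quartile 1 and 73.1% in quartile 3, with median scores of 0.366 and 0.699. The median was 0.563 with the interval alone, 0.564 within 25 kb. Minus protein-coding boundaries, the strong share was -8.70 points with the interval alone and 5.61 points in GC quartile 3. Boundaries with only lncRNA starts numbered 115 with the interval alone and 221 at or above the median score.

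The share with a CTCF match minus that of boundaries with neither start was above 0 under these 24 alternatives, but for matches in the interval taken by GC quartile it was -3.00 points in quartile 3 and -1.24 points in quartile 4. It was 3.25 points at or above the median score, 3.20 points for matches in the interval, 5.33 points over 200 kb from a protein-coding start, 3.94 points when weighted, and 4.46, 1.13 and 4.31 points in GC quartiles 1, 3 and 4. Minus protein-coding boundaries it was above 0 under all 18 alternatives: 4.32 points within 25 kb, 5.38 and 17.2 points in GC quartiles 1 and 4, 4.31 points for the interval and 4.21 points for the interval with 1 mismatch. The share itself was 10.3% for the interval and 54.0% with 1 mismatch. Of lincRNA genes 2.22%, 6.24% and 19.2% started within 0, 5 and 25 kb of a boundary and 5.41% within 10 kb of a strong one. Of antisense genes these shares were 2.74%, 8.18%, 23.4% and 8.18%. With strong boundaries alone the median spacing was 395 kb. The weighting, the ranges of distance and the limit to unique sequence were added after the data had been seen.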
